A study of Solanum lycopersicum with 6 samples.

Results

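The 9 genes described here are tomato (Solanum lycopersicum) MADS-box genes grouped under floral organ identity, measured in dormant axillary buds. Among them, RIN is known as a ripening regulator of the fruit. They were picked by gene ID out of 34075 listed IDs: the B-class genes TAP3 (Solyc04g081000.3), TM6 (Solyc02g084630.3), TPI (Solyc06g059970.4), and GLO1 (Solyc08g067230.4), the C-class genes TAG1 (Solyc02g071730.4) and TAGL1 (Solyc07g055920.4), and the SEPALLATA-type genes TM5 (Solyc05g015750.3), TM29 (Solyc02g089200.4) and RIN (Solyc05g012020.4). RNA was sequenced from whole axillary buds, the side-shoot buds in the leaf axils, at 25 days after germination. There were 3 genotypes with 2 samples each, and all shared the cultivar label MT. They were the wild type (MT), a line that overexpresses the microRNA miR156 (miR156-OE, titled 156OE), and the line labelled rSBP15, which its sample titles also mark with the letters OE. A sample pooled about 20 buds of 4 to 5 plants, and whether the samples of a genotype came from separate plantings is not stated, so p-values measure the spread between these samples, which may be technical. The promoters of the transgenes and the number of independent lines are not given in the sources used here.

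MADS-box proteins of the floral organ classes bind DNA in complexes of several members, and the combination present decides which organ forms. In the flower model worked out in Arabidopsis and Antirrhinum, B-class proteins give petals and stamens, C-class proteins give stamens and carpels, and SEPALLATA proteins bridge the others into one complex. Their transcripts mark floral meristems and young flowers and are usually low in vegetative shoots. miR156 lowers SBP-box transcription factors, a family that promotes the passage from juvenile to adult growth and to flowering.

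The authors deposited 1 table for each line against MT, which lists p-values and log fold changes by gene but no single libraries, so that levels, sequencing depth and the 4 single values behind each change are unknown here. No base is given for the logarithm. Genes listed at a log fold change of exactly 0 are called undetected, which left 24920 detected genes for miR156-OE and 25329 for rSBP15, and 0 of the 9 MADS-box genes were undetected in either table. The standard errors below were recovered from the deposited p-values. They also show how the libraries lay: with 2 libraries a side, a change over 1.414 times its standard error can only arise when both libraries of the line lie on the same side of both MT libraries, and a change under 1 standard error only when the libraries overlap.

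Of the 9 genes, 8 had lower transcript values in all libraries of miR156-OE than in either MT library, and the same 8 were lower in all libraries of rSBP15 than in either MT library. The exception in both was RIN. A log fold change of -1 or below in both of the authors' deposited tables was found for 5 genes: TAP3, TPI, TM29, TM5 and GLO1. Among all detected genes 0.257% were at -1 or below in miR156-OE and 0.955% in rSBP15. Counts and ranks by the size of a change take no account of its standard error. The standard errors of these 5 genes were above those of 91.4% to 98.4% of detected genes in miR156-OE and 96.7% to 99.5% in rSBP15. The median of the 9 log fold changes was -1.14 in miR156-OE and -1.03 in rSBP15, beside medians of -0.00059 and 0.00053 over all detected genes. Libraries that did not overlap, with the line lower, were found for 19.6% of all detected genes in miR156-OE and for 30.7% in rSBP15. Both tables use the same MT libraries, so the values in one line are no independent support for those in the other.

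None of the 9 passed the threshold, an adjusted p of 0.05 over all detected genes (the authors' p-values, from a limma-type test, adjusted by the Benjamini-Hochberg method). Of all detected genes, 0.0201% passed in miR156-OE and 5.58% in rSBP15. Before adjustment, 4 of the 9 were lower in miR156-OE at p under 0.05, against 7.3% of all detected genes, namely TM6, TM5, TM29 and TAP3. In rSBP15 2 of the 9 were, TM5 and TM29, against 16.2% of all detected genes. RIN was higher in rSBP15 at an unadjusted p under 0.05, as 17.1% of all detected genes were. The 0 calls do not show that the genes were alike in the genotypes, and the 95% intervals given below for TAP3, TM6 and TM5 reach far from 0. Since whole buds were sampled, fewer cells of a type and less RNA per cell cannot be told apart.

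**Figure D1:**
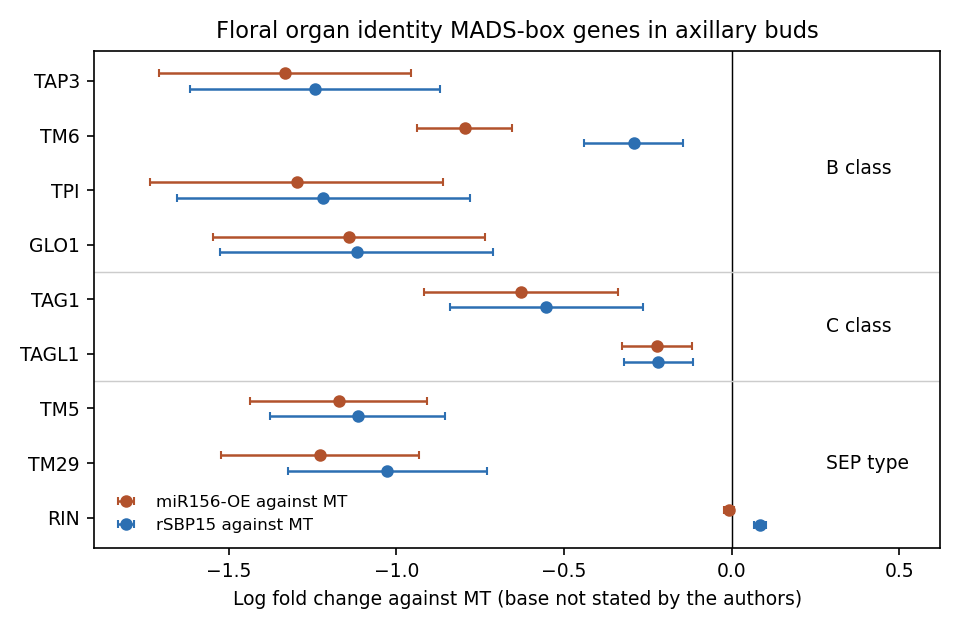
Log fold change of each gene against MT (x axis, base not stated) for miR156-OE and rSBP15, with bars for the recovered standard error (2 libraries against 2). TAP3, TPI, GLO1, TM5 and TM29 lie between -1.33 and -1.03 in both lines, TM6 is nearer to 0 in rSBP15 than in miR156-OE, and RIN lies near 0.

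The lowest values of the 9 genes were found in the B class. TAP3, an AP3-type gene needed for petals and stamens, stood at -1.33 in miR156-OE per the authors' deposited table (standard error 0.376, 95% interval -2.63 to -0.032, adjusted p = 0.371, limma-type test). For rSBP15 the authors' deposited table gave -1.24 (standard error 0.373, 95% interval -2.52 to 0.036, adjusted p = 0.155, limma-type test). The libraries of both lines lay below those of MT. A log fold change lower than that of TAP3 was found for 0.108% of detected genes in miR156-OE, where it ranked 28 from the lowest. In rSBP15 the share was 0.426%, and TAP3 ranked 109. These ranks do not weigh its standard error, which was above that of 97.2% of detected genes in miR156-OE and 99.1% in rSBP15.

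TPI and GLO1 belong to the PISTILLATA type, whose proteins pair with those of the AP3 type. In the authors' deposited tables TPI was at -1.30 in miR156-OE and at -1.22 in rSBP15, with standard errors of 0.437 and 0.436. The adjusted p-values, from the limma-type test, were 0.419 and 0.190. GLO1 was at -1.14 (standard error 0.406) and -1.12 (standard error 0.406) in the authors' deposited tables, with adjusted p-values of 0.435 and 0.193. In both lines the libraries of both genes lay below the MT libraries. TPI ranked 33 from the lowest in miR156-OE and 121 in rSBP15, and GLO1 ranked 46 and 167.

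TM6, the other gene of the AP3 type, had log fold changes smaller in size than those of the rest of its class. This difference between genes was not tested. In both lines the value of TM6 lay inside the 95% intervals of TAP3, TPI and GLO1. In miR156-OE the authors' deposited table had it at -0.80, with the smallest unadjusted p of the 9 genes there, 0.0173 (standard error 0.141, 95% interval -1.28 to -0.31, adjusted p = 0.277, limma-type test). In rSBP15 the value in the authors' deposited table was -0.29 (standard error 0.148, 95% interval -0.80 to 0.21, adjusted p = 0.278, limma-type test). Here too the libraries of each line lay below both MT libraries. TM6 ranked 111 from the lowest in miR156-OE and 2980 in rSBP15, where 11.8% of detected genes had a lower value. Ranks in the lines are not on the same scale: TAGL1, at -0.22 in both, ranked 1360 in miR156-OE and 4043 in rSBP15.

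The C-class genes were closer to 0 than TAP3, TPI and GLO1 in both lines. TAG1, the tomato AGAMOUS-type gene of stamens and carpels, was at -0.63 in miR156-OE and -0.55 in rSBP15 per the authors' deposited tables. The standard errors were 0.289 and 0.288, and the adjusted p-values 0.515 and 0.287 (limma-type test). TAGL1, a close relative known for its part in fleshy fruit growth and ripening, was at -0.22 in both of the authors' deposited tables, with a standard error of 0.104 in both and adjusted p-values of 0.517 and 0.259. The libraries of each line did not overlap those of MT for either gene, although the standard error of both was large beside the change, from 46.1% to 52.0% of it. A lower value than that of TAGL1 was found for 5.45% of detected genes in miR156-OE and for 16.0% in rSBP15. The share in rSBP15 places it well inside the bulk of the genes there.

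Among the SEPALLATA-type genes, TM5 and TM29, which act in floral organs in tomato, had values like those of the B class, and RIN did not. TM5 was at -1.17 in miR156-OE per the authors' deposited table (standard error 0.263, 95% interval -2.08 to -0.26, adjusted p = 0.319, limma-type test) and ranked 42 from the lowest. For rSBP15 the authors' deposited table gave -1.12 (standard error 0.260, 95% interval -2.01 to -0.22, adjusted p = 0.119, limma-type test). TM29 was at -1.23 (standard error 0.295) and -1.03 (standard error 0.295) in the authors' deposited tables, with adjusted p-values of 0.329 and 0.148. The libraries of both lines lay below MT for both genes.

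RIN is known as a ripening regulator of the fruit. In miR156-OE the authors' deposited table had it at -0.0083, with a standard error of 0.0154 that exceeded the change, so that its libraries overlapped those of MT (adjusted p = 0.848, limma-type test). For rSBP15 the authors' deposited table gave 0.085 (standard error 0.0177, adjusted p = 0.105, limma-type test). Both rSBP15 libraries lay above both MT libraries, as was the case for 31.6% of all detected genes. With a standard error among the lowest 23.5% of detected genes, RIN had the narrowest 95% intervals of the 9 genes, 0.025 to 0.15 in rSBP15 and -0.062 to 0.045 in miR156-OE.

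**Figure D2:**
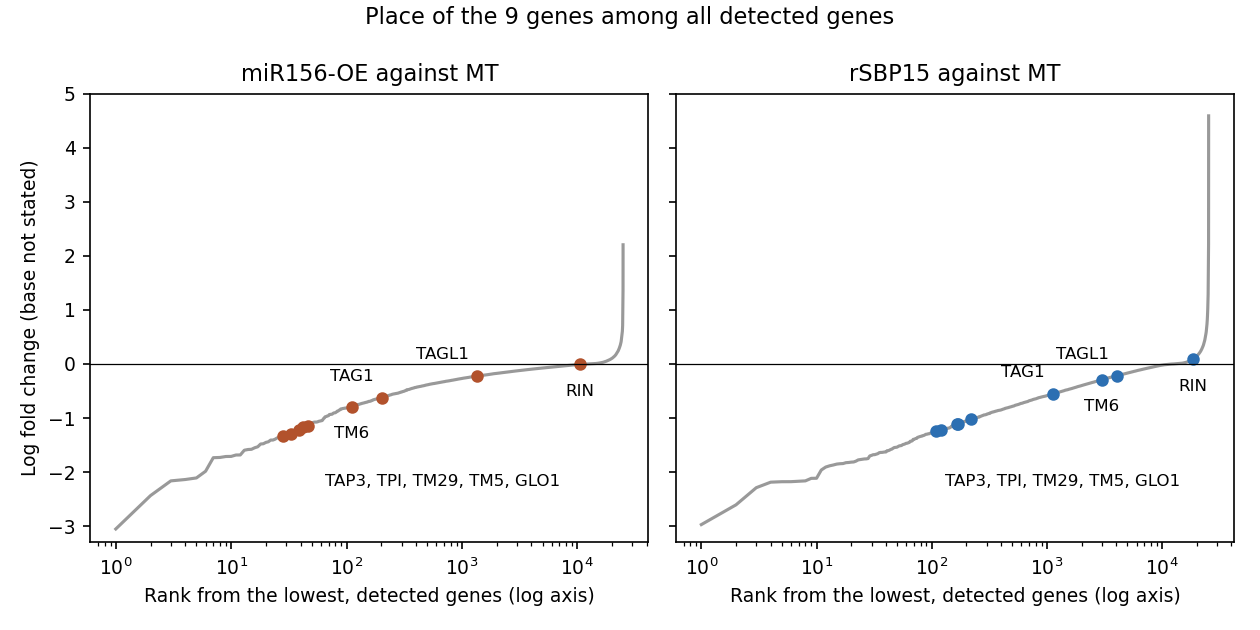
Log fold change against MT (y axis, base not stated) of all detected genes ordered from the lowest (grey line, log rank axis), with the 9 MADS-box genes as points. In miR156-OE TAP3, TPI, TM29, TM5 and GLO1 take ranks 28 to 46 of 24920, and in rSBP15 they take ranks 109 to 221 of 25329.

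A rule for naming the genes nearest in pattern took the gene with the largest change, TAP3, and found the gene IDs at the smallest Euclidean distance from it in the 2 log fold changes. The nearest ID of all was TPI, at a distance of 0.0426. The next was Solyc06g073587.1, at 0.105, which stood at -1.23 in miR156-OE and -1.21 in rSBP15 per the authors' deposited tables. Its standard errors were 0.142 and 0.144, and its adjusted p-values were 0.214 and 0.0642 (limma-type test). The sources used here give no name for this ID. The likeness rests on 2 values that share the MT libraries.

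The lines were then compared with each other, through the difference of their log fold changes, in which the MT libraries cancel. The difference, rSBP15 minus miR156-OE, was positive for all 9 genes, from 0.0044 to 0.50, as it was for 13305 of all genes against 11950 with a negative one. Of the 9 genes 0 passed an adjusted p of 0.05, as did 0% of the 25657 genes tested (limma's moderated test at the largest variance that the tables allow). At an unadjusted p under 0.05 the count was also 0 of 9, against 11.1% of all genes higher in rSBP15. For 7 of the 9 the difference lay between the smallest and the largest standard error that the tables allow, so that whether it exceeds its standard error is not known: TAP3 (0.088, standard error 0.0474 to 0.529), TPI (0.079), GLO1 (0.023), TAG1 (0.074), TAGL1 (0.0044), TM5 (0.057) and TM29 (0.20, standard error 0.0237 to 0.417). These values do not show that the lines were alike. At the largest standard error, the 95% interval of the difference ran from -1.35 to 1.53 for TAP3, from -1.60 to 1.76 for TPI, and was narrowest among the 7 for TAGL1, from -0.40 to 0.41.

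TM6 and RIN were the exceptions. For TM6 the difference was 0.50 (standard error at most 0.204), with a 95% interval of -0.058 to 1.06, an unadjusted p of 0.0644 and an adjusted p of 0.259 (limma's moderated test). For RIN it was 0.094 (standard error at most 0.0235), with an interval of -0.0029 to 0.19 and an adjusted p of 0.238 (limma's moderated test). Both rSBP15 libraries lay above both miR156-OE libraries for these genes, which held for 26.3% of all genes tested. In a fit of all 6 libraries at the smallest variance the tables allow, both had an adjusted p under 0.05 (0.0466 for TM6 and 0.0330 for RIN, limma), where 23.2% of all genes did. Over the alternative settings it ranged up to 0.448 for TM6 and 0.361 for RIN.

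**Figure D3:**
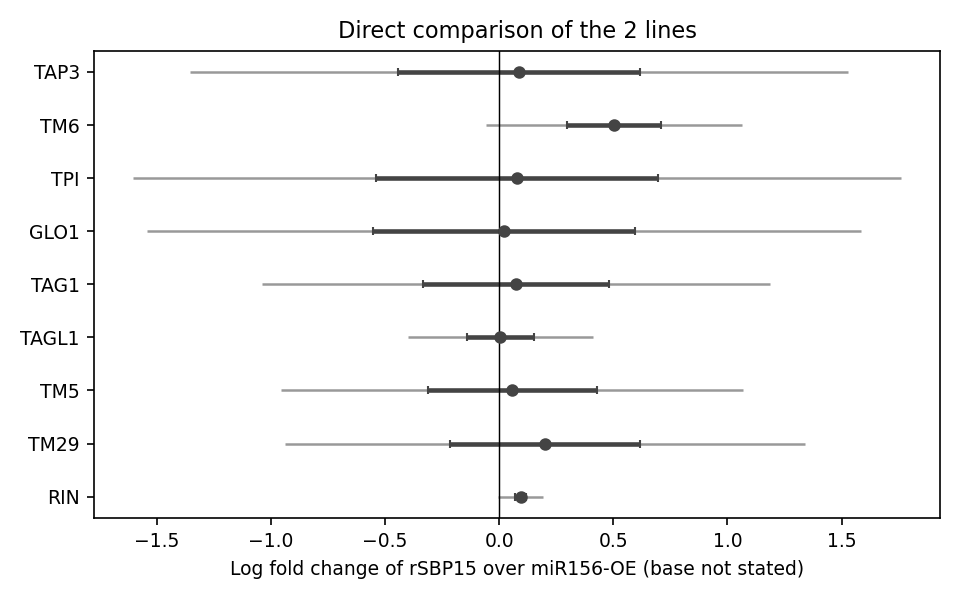
Difference of the 2 lines, rSBP15 minus miR156-OE, as a log fold change for each gene (x axis, base not stated), with thick bars for the largest standard error the tables allow and thin bars for the 95% interval. TM6 at 0.50 and RIN at 0.094 exceed these largest standard errors, the other 7 lie below them, and all 9 intervals, drawn at the largest standard error, include 0.

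The spread behind the values of most of these genes was large and nearly the same in both tables, with RIN as the clearest exception. The standard errors of TAP3, TPI and GLO1 were above those of 97.2% to 98.4% of detected genes in miR156-OE, and above those of 99.1% to 99.5% in rSBP15. For 7 of the 9 genes the residual variances of the tables differed by less than 5% of the larger one: by 0.070% for TAGL1, 0.099% for GLO1, 0.39% for TPI, 0.65% for TM29, 1.26% for TAG1, 1.60% for TAP3 and 1.91% for TM5. Of the 24592 genes detected in both comparisons, 8.30% differed by so little, and the median difference was 50.8%. For TM6 it was 8.37% and for RIN 23.9%. This was looked at after the values were seen and is given with no test. Each residual variance is the mean of the variance between the MT libraries and that between the libraries of the line, so the tables fix the difference of the variances of the lines, which was small beside the residual variance in these 7 genes, and not their ratio. How the spread was divided is not known: the MT libraries may have differed from each other by an SD of anything up to 0.527 for TAP3, 0.617 for TPI and 0.574 for GLO1.

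**Figure D4:**
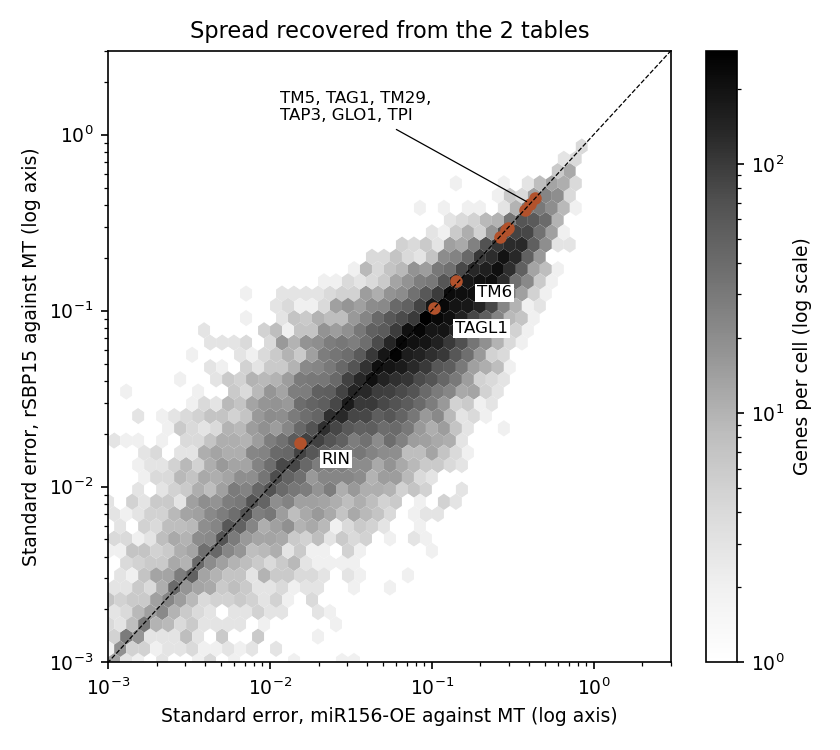
Recovered standard error of each gene detected in both tables, in miR156-OE against MT (x axis, log scale) and rSBP15 against MT (y axis, log scale), as grey cells shaded by the number of genes, with the 9 MADS-box genes as points and equality as a dashed line. The 6 genes at the upper right, with standard errors of 0.260 to 0.437, lie on the line of equality.

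Further lists were set beside the 9 genes, drawn up from general knowledge of tomato gene IDs with earlier results of these data known. The sources used here do not pair their IDs with names, so they are described by counts. Of 12 other IDs taken as MADS-box genes, 10 were detected, and all 10 were negative in miR156-OE per the authors' deposited table, from -1.24 to -0.13 with a median of -0.61. The miR156-OE libraries of all 10 lay below MT, as for 19.6% of all detected genes. An unadjusted p under 0.05 (limma-type test) was found for 7 of them, beside 7.3%, and 2 were at -1 or below, beside 0.257%. In rSBP15 6 of the 10 were negative and 4 positive in the authors' deposited table, from -0.96 to 1.24 with a median of -0.20. The rSBP15 libraries of these 6 lay below MT and those of the 4 above it, as for 30.7% and 31.6% of all detected genes. At -1 or below were 0 of the 10 in rSBP15, beside 0.955%. None passed the adjusted threshold in miR156-OE, and 1 did in rSBP15, where 5.58% of all detected genes did: Solyc02g065730.2, at 1.00 in the authors' deposited table (standard error 0.0238, adjusted p = 0.0259, limma-type test). Without moderation of the variances 0 of the 10 passed in rSBP15, beside 0.17% of all genes, and with the prior refitted without undetected genes 5 did, beside 14.7%. Of 6 IDs taken as regulators of the floral meristem, 5 were negative in miR156-OE and 3 in rSBP15 in the authors' deposited tables. Their medians were -0.44 and -0.095. The lowest and highest values were -1.09 and 0.085 in miR156-OE, and -0.90 and 0.79 in rSBP15, where 3 IDs were positive. None of the 6 passed the threshold, beside 0.0201% of all detected genes in miR156-OE and 5.58% in rSBP15. The refitted prior gave 2 of the 6 in rSBP15, beside 14.7%, and 0 in miR156-OE. Without moderation 0 passed in either line. The fit of all 6 libraries at the smallest variance gave 3 in rSBP15, beside 19.5% of all genes, and 1 in miR156-OE, beside 0.865%.

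The labelled tissue could not be checked against markers, since the tables hold no levels and 73.1% and 74.3% of all IDs were detected. All 6 IDs taken as axillary meristem genes were detected, as were all 3 taken as leaf photosynthesis genes. The axillary meristem IDs had a median log fold change of -0.17 in miR156-OE, where all 6 were negative, from -0.55 to -0.11. Their median in rSBP15 was -0.25, with 5 negative and 1 positive, from -1.13 to 0.48 in the authors' deposited table. Both rSBP15 libraries of the positive ID lay above both MT libraries, as was the case for 31.6% of all detected genes. In rSBP15 2 of the 6 passed the threshold and were lower, where 5.58% of all detected genes passed in either direction, Solyc07g066250.1 at -0.17 (standard error 0.0031, adjusted p = 0.0237, limma-type test) and Solyc07g062840.3 at -1.13 (standard error 0.0398, adjusted p = 0.0314, limma-type test) in the authors' deposited table, and 0 of the 6 passed without moderation of the variances, beside 0.17% of all genes. The 3 IDs taken as leaf photosynthesis genes had positive values in both lines, at 0.50 to 0.73 in miR156-OE and 0.062 to 0.78 in rSBP15 per the authors' deposited tables. For the ID at 0.062 the standard error was 0.213, and its rSBP15 libraries overlapped those of MT. Of the 3, 0 passed the threshold, beside 0.0201% of all detected genes in miR156-OE and 5.58% in rSBP15. Summed levels of these markers cannot be had from log fold changes. The part of leaf tissue or of floral meristem cells in the values of the floral organ genes was not tested.

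**Figure D5:**
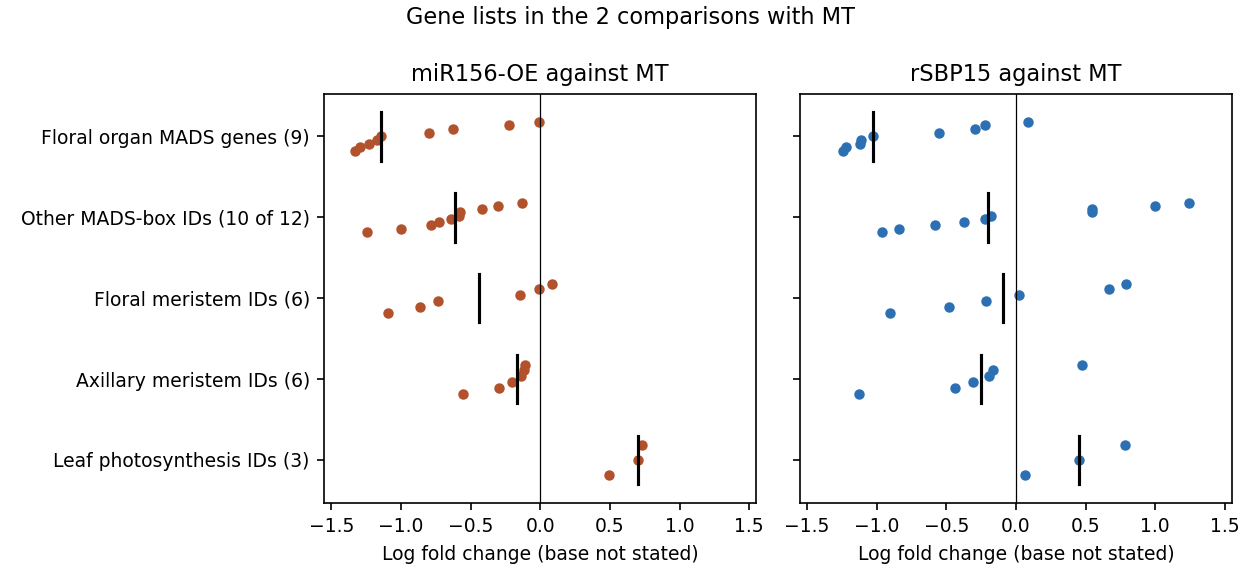
Log fold changes against MT (x axis, base not stated) of the detected genes of each list in miR156-OE and rSBP15, with a black bar at the median. The floral organ MADS-box genes have medians of -1.14 and -1.03, the other MADS-box IDs of -0.61 and -0.20, and the leaf photosynthesis IDs of 0.70 and 0.45.

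Tomato gene IDs are numbered along the chromosomes, so the IDs next in number to each of the 9 genes were read as well, 18 in all. Of these, 4 were undetected in both tables, and they stay in the counts of 18 below although the shares are over detected genes. In miR156-OE 1 of the 18 was at -0.5 or below in the authors' deposited table, Solyc02g089210.4 beside TM29, at -0.58 (standard error 0.0239, adjusted p = 0.144, limma-type test), and it is also among the other MADS-box IDs. A value lower than that of Solyc02g089210.4 was found for 0.947% of all detected genes in miR156-OE. In rSBP15 0 of the 18 were at -0.5 or below. The share of all detected genes at that limit was not computed, and 4.45% were lower than TAG1 at -0.55. The IDs on either side of TAP3 were at -0.017 and -0.0011 in miR156-OE per the authors' deposited table, and those on either side of TPI at -0.048 and -0.0031. In rSBP15 2 of the 18 passed the adjusted threshold, where 5.58% of all detected genes did. They were Solyc07g055930.3 beside TAGL1, at 0.97 in the authors' deposited table (adjusted p = 0.0482, limma-type test), and Solyc04g080990.2 beside TAP3, at -0.020 (adjusted p = 0.0428, limma-type test).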

How the data were processed

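Per the labels' protocols, total RNA of frozen buds was extracted with TRIzol, treated with DNase and selected for poly(A), and stranded TruSeq libraries were made. The submitters' processing notes name HISAT2 and StringTie. Build, expression unit, filter and test are not given in the sources used here. The authors deposited 2 tables of 34075 genes which, per the file headers, hold log fold changes and p-values, written with decimal commas.

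The Benjamini-Hochberg adjustment ran over detected genes. Under limma's moderated test, the residual variance of a gene read in 1 library of the 4 is its squared change. From 1224 and 1262 such genes, within 1e-06 in p, the prior degrees of freedom (0.347 and 0.360) and prior variances (1.94e-06 and 1.92e-06) were recovered, and with them every residual variance. limma 3.58.1 (R 4.3.3) returned the same constants from all rows. The line-against-line test used the sum of both variances with 2 residual degrees of freedom. That the tables share MT values was checked on 402 genes with equal changes in both, all negative. Recovery, fits and the overlap rule were tested on simulated data.

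All 9 genes were named whatever their result, and other list IDs where called. Members and lists were chosen with earlier results of these data known. Names come from the member list: the RefSeq table (SLM_r2.1) holds 0 of the gene IDs, and 7 of the 9 names. The member list also calls TPI GLO2, a symbol that RefSeq gives to a gene on another chromosome, so only TPI is used. No sequences or coordinates were used.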

Additional observations from a re-analysis of the deposited data

Results flagged for a closer look

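For 5 IDs of the further lists, both libraries of miR156-OE lay below MT and both libraries of rSBP15 above it. The lines lay on opposite sides of MT, in either order, for 2909 of the 24592 genes detected in both tables (11.8%). The share with this order alone is smaller and was not computed. None of the 9 floral organ genes had the lines on opposite sides of MT in this way. The difference of the lines, rSBP15 minus miR156-OE, was 1.13 for Solyc06g069430.3 (adjusted p = 0.120, limma's moderated test at the largest variance), 1.19 for Solyc03g114830.3 (adjusted p = 0.103), 1.13 for Solyc02g065730.2 (adjusted p = 0.0991), 2.03 for Solyc03g019710.3 (adjusted p = 0.102) and 1.88 for Solyc06g074350.3 (adjusted p = 0.131). The first 4 are among the other MADS-box IDs and the last among the floral meristem IDs. All but Solyc02g065730.2 were named after their values were seen.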

How the results depend on the processing

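The number of the 9 genes past the threshold was 0 in each comparison. It stayed 0 without moderation, with all 6 libraries fitted at the largest variance and, against MT, with the refitted prior. It was also 0 under the adjustment over all rows, at an adjusted p of 0.01 and with a size of at least 1. The stricter threshold, the size limit and, against MT, the adjustment over all rows could only give 0, so these are no support. At an unadjusted p under 0.05 the number was 4 in miR156-OE, all lower, where 7.3% of all detected genes were lower. It was 3 in rSBP15, 2 lower and 1 higher, where 16.2% of all detected genes were lower and 17.1% higher. It was 0 between the lines, where 11.1% of all genes were higher in rSBP15. With all 6 libraries fitted at the smallest variance it was 0 in miR156-OE, where 0.865% of all genes passed. In that fit it was 3 in rSBP15, where 19.5% of all genes passed. The adjusted p was 0.0335 for TM5, 0.0497 for TM29 and 0.0444 for RIN (limma), with 0.192, 0.223 and 0.176 as the highest over the alternatives. For the comparison of the lines it was 2, where 23.2% of all genes passed (adjusted p of 0.0466 for TM6 and 0.0330 for RIN, limma). The smallest variance is a lower bound. Between the lines the mean variance of both tables gave 0, and the planned test already uses the prior refitted without undetected genes. Of 135 alternative adjusted p-values of single genes, 130 stayed on the same side of 0.05 and 5, those just given, went below it. Against MT, the values from the adjustment over all rows could only stay above it. Of 96 alternative counts for the further lists, 36 moved, which means a change to or from 0 or one by over 1.5 times. Each setting changes the test alone, so directions are fixed. No paired analysis was possible because single libraries are not in the tables, and no replicate was left out for that reason.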
